A study of Mus musculus with 45 samples.

Results

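The transcripts described here encode the chaperone and folding machinery of the endoplasmic reticulum (ER) lumen: *Calr*, *Canx*, *Hspa5*, *Hsp90b1*, *Pdia3*, *Pdia4*, *Pdia6*, *Dnajb11*, *Sdf2l1* and *Xbp1*. These 10 genes, of 56039 gene identifiers in the tables, are all present in each of the 3 count tables. They were selected by the changes measured in these same samples, so their levels and fold changes in the 4 treatments are given as a description, without p-values. Counts of these genes past the call rule are likewise descriptive, and tests are reported only for genes outside the group. The lists of those genes were also chosen with earlier results of these data known, which limits what their p-values can show.

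Proteins that are secreted or inserted into membranes fold in the ER, where HSP70 and HSP90 chaperones bind unfolded chains, disulfide isomerases form and reshuffle disulfide bonds, and lectin chaperones retain glycoproteins until they are folded. When unfolded chains accumulate, the sensors IRE1 (*Ern1*), PERK (*Eif2ak3*) and ATF6 start the unfolded protein response, in which spliced XBP1 and cleaved ATF6 induce the chaperone genes. In phagocytes such as microglia, the resident macrophages of the brain, the same machinery serves the production of cytokines, receptors and MHC class I molecules.

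*Hspa5* (ENSMUSG00000026864, chr2:34771970-34777547 in mm10, plus strand) encodes BiP, the HSP70 of the ER. *Dnajb11* (ENSMUSG00000004460, chr16:22857845-22879634, plus strand) encodes a J-domain partner of BiP, and *Sdf2l1* (ENSMUSG00000022769, chr16:17130138-17132383, minus strand) a small protein that works with such partners. *Hsp90b1* (ENSMUSG00000020048, chr10:86690209-86705509, minus strand) encodes GRP94, the HSP90 of the ER, a chaperone for Toll-like receptors and integrins. *Calr* (ENSMUSG00000003814, chr8:84841850-84846934, minus strand) and *Canx* (ENSMUSG00000020368, chr11:50293961-50325673, minus strand) encode the lectin chaperones calreticulin and calnexin. The disulfide isomerases are encoded by *Pdia3* (ENSMUSG00000027248, chr2:121413775-121438687, plus strand), which acts with the lectin chaperones and in the MHC class I peptide loading complex, *Pdia4* (ENSMUSG00000025823, chr6:47796141-47813430, minus strand) and *Pdia6* (ENSMUSG00000020571, chr12:17266545-17284770, plus strand). *Xbp1* (ENSMUSG00000020484, chr11:5520659-5525893, plus strand) encodes the transcription factor itself, and gene-level counts do not separate its spliced from its unspliced form. Genes on the opposite strand overlap *Hsp90b1*, *Pdia3*, *Pdia6* and *Dnajb11*, and whether counting used strand is not given in the sources used here.

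The upstream sequences are shown because these genes are known to share a control element, the ER stress response element (ERSE). It was searched as CCAAT, 9 bases of any kind and CCACG, on both strands of the 250 bases before the RefSeq start site (GRCm38.p6). An exact match was present in 5 of the 10 genes and in 0.113% of 32851 mouse promoter windows of the same length (37 windows). The matches are printed 5′ to 3′ on the strand of the gene with the element in capitals; in *Calr* and in the second match of *Hsp90b1* it lies in reverse, and in *Hspa5* the first capitals mark a UPRE core (TGACGTG), a motif present in 1.65% of windows.
*Hspa5* (chr2:34771921-34772055, plus strand): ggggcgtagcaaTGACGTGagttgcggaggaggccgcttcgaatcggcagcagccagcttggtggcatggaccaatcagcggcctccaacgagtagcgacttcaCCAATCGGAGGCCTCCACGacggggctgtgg
*Hsp90b1* (chr10:86705521-86705668, minus strand): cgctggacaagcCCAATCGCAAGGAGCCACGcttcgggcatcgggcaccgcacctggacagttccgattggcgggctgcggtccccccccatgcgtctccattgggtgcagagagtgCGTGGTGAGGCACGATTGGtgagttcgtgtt
*Calr* (chr8:84847063-84847105, minus strand): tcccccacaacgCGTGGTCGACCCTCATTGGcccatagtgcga
*Canx* (chr11:50325788-50325830, minus strand): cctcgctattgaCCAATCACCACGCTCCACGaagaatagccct
*Pdia6* (chr12:17266479-17266521, plus strand): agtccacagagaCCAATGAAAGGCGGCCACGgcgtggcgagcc
The nearest base of the match lay 47 bases before the start site in *Hspa5* and 80 in *Pdia6*. A second element, ERSE-II (ATTGG, 1 base of any kind and CCACG), was found in 0.0304% of windows and in none of the 10 genes. A match of letters describes the sequence only, and the absence of an exact match in the other 5 genes says nothing about the factors that act on them.

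RNA was sequenced from 45 C57BL/6 mouse samples, and the titles of all adult microglia and brain tissue samples carry the label WT (wild type). Slice microglia were sorted from organotypic coronal brain slices of neonatal pups, cultured for 2 weeks and then kept for 24 h in medium (n = 9), TNF at 50 ng/mL (n = 11) or GM-CSF at 20 ng/mL (n = 9), with slices pooled for each sample. Adult microglia were sorted from female mice aged 10 to 15 weeks, 24 h after intraperitoneal PBS (n = 4) or lipopolysaccharide (LPS) at 1 mg/kg (n = 4). Whole brain tissue came from mice of the same age range, labelled untreated (n = 4) or 24 h after the same LPS dose (n = 4). Per the study, the mice of its in vivo LPS experiments were female. Sorted cells were gated as live, CD11B high and CD45 intermediate. Per the study, the in vivo samples of a group came from separate mice, and the slice samples were pools of separately treated slices from several experiments, which the labels do not assign to samples. For slices the p-values therefore measure the spread between pools. The 3 tables were normalised separately, no level was tested between tables, and the LPS controls differ (PBS in adult microglia, untreated in brain tissue).

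Library totals lay between 5973364 and 14216005 counts. The 10 microglial markers summed to 64843 to 71300 CPM (counts scaled to a common library total) in the PBS libraries, 41372 to 48183 in adult LPS, 21314 to 29585 in slice medium, 10232 to 13348 in TNF and 15072 to 16916 in GM-CSF, and to 253 to 425 in brain tissue, where neuronal markers reached 6292 to 6968. In adult microglia, neutrophil markers summed to 41.0 to 84.9 CPM under PBS and 2.99 to 9.19 under LPS, with 4 of the 10 at 0 in every LPS library, and all 5 that could be tested fell. Summed markers fell without overlap for some other cells too. Endothelial markers went from 28.9 to 36.3 down to 10.2 to 13.7 CPM. Astrocyte markers went from 255 to 281 down to 147 to 183, and oligodendrocyte markers from 179 to 202 down to 136 to 156. Few could be tested: 1 of 8 endothelial (called lower), 3 of 8 astrocyte (1 called lower, 2 above zero) and 4 of 8 oligodendrocyte markers (1 called lower, 1 above zero). Border macrophage and monocyte sums overlapped (20.9 to 26.2 under PBS, 19.2 to 31.2 under LPS), as did lymphocyte and plasma cell sums (33.7 to 39.6 and 19.8 to 36.4). Cell cycle genes summed to 176 to 202 CPM under PBS and 458 to 731 under LPS. In slices, border macrophage and monocyte markers summed to 339 to 864 CPM in medium, 514 to 1321 with TNF and 360 to 756 with GM-CSF. With TNF 7 of these 10 could be tested, and 1 was called higher and 2 lower. Neutrophil markers ran from 0.448 to 14.0, 2.11 to 116 and 1.08 to 44.1 CPM. The sums of every list of another cell type overlapped between the slice groups. The part of such cells in the slice results was not tested.

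Levels of the 10 transcripts were compared with one another per kilobase of exon (CPM per kb). Their sum was 1877 ± 65.3 CPM per kb in adult PBS microglia and 4270.2 ± 382 in adult LPS microglia (mean ± SD, n = 4 each). In slices it was 2361 ± 152 in medium (n = 9), 2601 ± 183 with TNF (n = 11) and 2752 ± 129 with GM-CSF (n = 9). Brain tissue held 415 ± 10.9 untreated and 501 ± 103 after LPS (n = 4 each), where the LPS libraries ran from 363 to 609.7. In PBS microglia the order was *Pdia3* (371 CPM per kb), *Calr* (311), *Hsp90b1* (262), *Hspa5* (223) and *Canx* (174), and the library ranges of neighbours in this order did not overlap. In LPS microglia *Hspa5* stood first at 734 CPM per kb, beside *Pdia3* at 719 and *Calr* at 712, 3 levels whose library ranges overlapped. In medium-treated slices *Pdia3* (403), *Hspa5* (379) and *Calr* (368) overlapped likewise. With TNF *Hspa5* stood first at 584, and its library range overlapped that of *Calr* (398). *Dnajb11* was the lowest in every group of sorted microglia, at 45.4 to 118 CPM per kb. Brain tissue differed in its order, with *Calr* (104) and *Canx* (82.5) first and *Sdf2l1* last (5.12) in untreated samples.

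**Figure D1:**
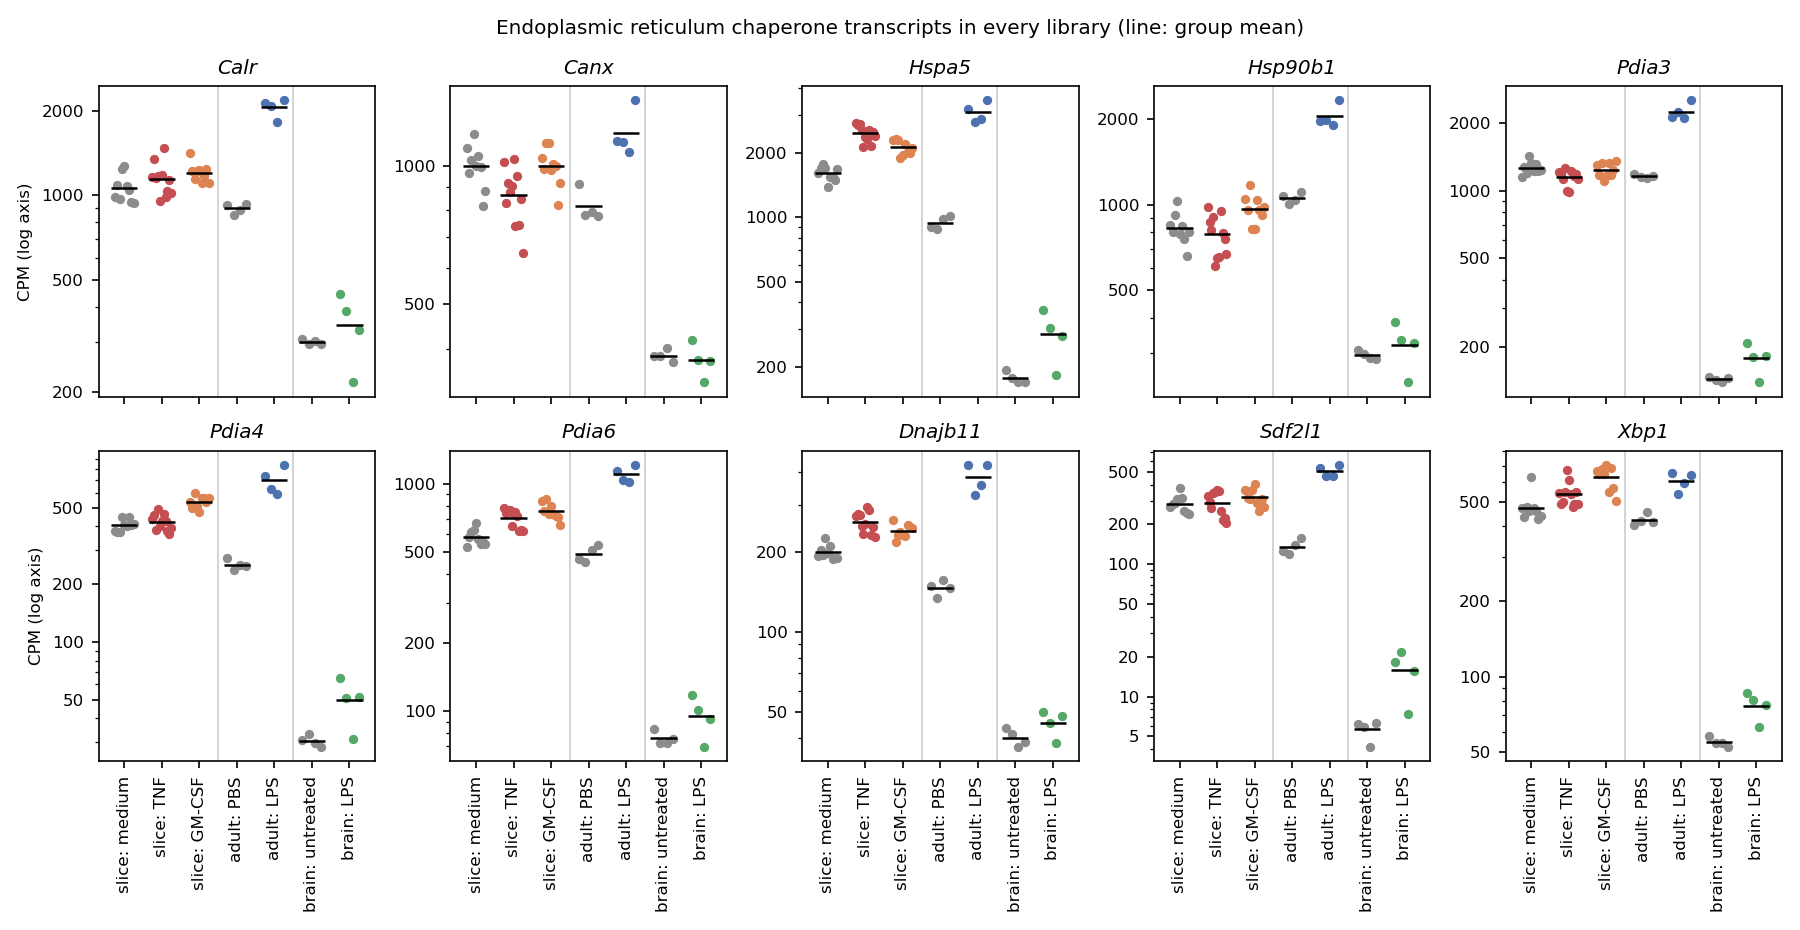
CPM of each transcript (log axis) in every library, by group, with the group mean as a line; grey lines part the 3 tables, which were normalised separately. All 4 adult LPS libraries lie above all 4 PBS libraries for each of the 10 genes, while 1 brain LPS library lies below the other LPS libraries for each gene.

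In adult microglia all 10 chaperone transcripts were higher after LPS, and for each of them every LPS library lay above every PBS library. The same held for 24.1% of the 12987 genes tested. Called here means an adjusted p under 0.05 with a change of more than 1.5-fold, by edgeR's quasi-likelihood test over all genes. By this rule 8 of the 10 were called higher, against 14.4% of all genes (13.0% were called lower), which for genes selected on this contrast is a description only. In bulk samples a lower level can come from fewer cells of a type or from less RNA per cell, and these cannot be told apart.

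The largest difference was that of *Sdf2l1*, with 126, 119.9, 139 and 158 CPM in the PBS libraries and 529.8, 462, 466 and 562 CPM in the LPS libraries. Its lowest LPS library was far above its highest PBS library, and the log2 fold change was 1.90 ± 0.10 (SE). *Hspa5* measured 900.0, 877, 981 and 1018 CPM under PBS and 3220.2, 2775, 2889 and 3529 CPM under LPS, a log2 fold change of 1.72 ± 0.09. The groups were again far apart. *Pdia4* stood at 273, 237, 253 and 250.2 CPM under PBS and at 733, 629, 592 and 837 CPM under LPS (log2 fold change 1.46 ± 0.10). *Dnajb11*, the partner of BiP, followed with 1.38 ± 0.09. *Calr* measured 925, 847, 888 and 928 CPM against 2133, 2073, 1821 and 2179 CPM, a log2 fold change of 1.19 ± 0.07. *Pdia6* (1.16 ± 0.08), *Pdia3* (0.96 ± 0.07) and *Hsp90b1* (0.96 ± 0.08) completed the 8.

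The membrane-bound lectin chaperone and the transcription factor changed least. *Canx* stood at 914, 784, 794 and 778 CPM under PBS and at 1132, 1124, 1071 and 1389.7 CPM under LPS, a log2 fold change of 0.53 ± 0.09. *Xbp1* stood at 404, 419.6, 455 and 415 CPM under PBS and at 652, 538, 598 and 644 CPM under LPS, a log2 fold change of 0.52 ± 0.08. Neither pair of groups overlapped, and both differences were under 1.5-fold, with *Pdia3* and *Hsp90b1* the nearest of the 10 beyond it. Within the LPS group, replicate 4 held the highest level of 9 of the 10 genes and replicate 3 the lowest of 6.

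**Figure D2:**
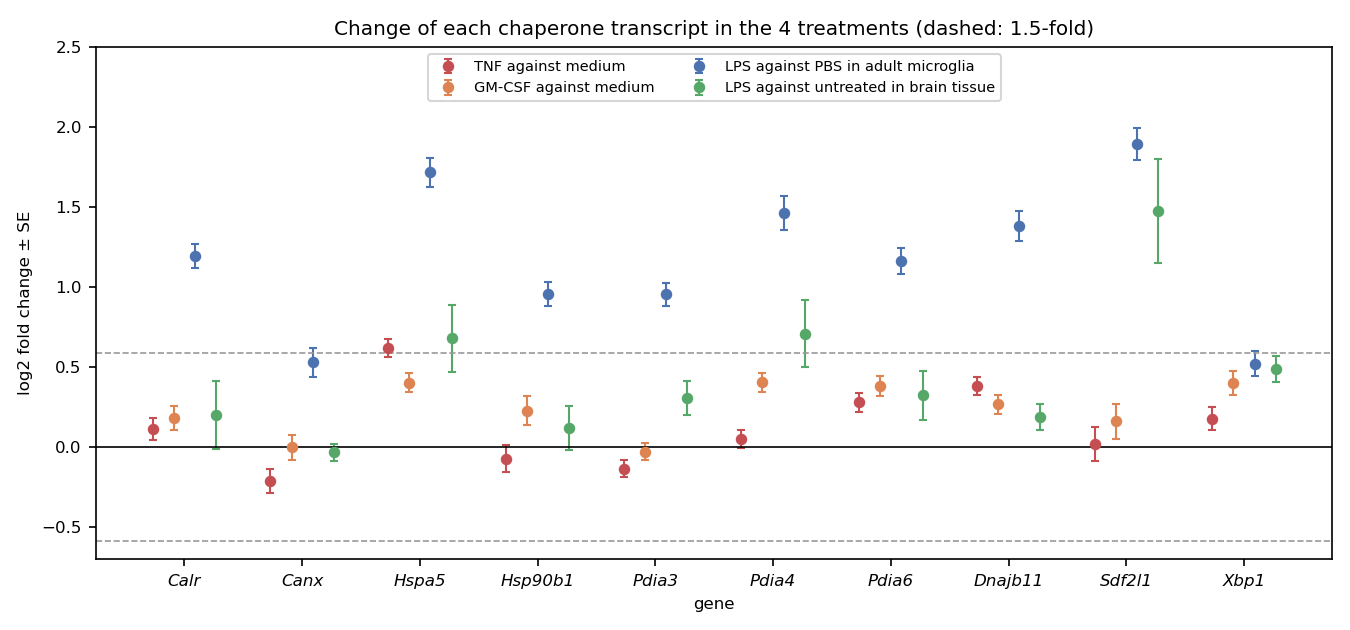
Log2 fold change ± SE of each transcript in the 4 treatments against their controls, with the 1.5-fold limit dashed. The adult LPS values run from 0.52 (*Xbp1*) to 1.90 (*Sdf2l1*), and *Hspa5* is the gene beyond the limit with TNF.

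The rest of the ER folding machinery was examined in 9 lists of 103 genes that hold none of the 10. For genes outside the 10, rose and fell mean called higher and called lower. In adult microglia 42 of the 98 tested genes rose and 3 fell after LPS, with a median log2 fold change of 0.52, against 0.01 over all genes. Among the HSP70 partners 6 of 10 rose. *Manf*, a secreted ER protein that binds BiP, rose from 89.3 ± 9.45 to 286 ± 25.9 CPM (SD, n = 4; log2 fold change 1.68 ± 0.09, adjusted p = 1.66e-07). *Creld2* (1.64 ± 0.10, adjusted p = 3.6e-07), *Hyou1*, a nucleotide exchange factor for BiP (1.61 ± 0.14, adjusted p = 6.19e-06), *Dnajc3* (1.21 ± 0.09, adjusted p = 1.3e-06) and *Dnajb9* (0.81 ± 0.10, adjusted p = 3.67e-05) rose with it.

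Of the 15 oxidoreductases 8 rose, among them *P4hb*, the archetypal protein disulfide isomerase, from 599 ± 18.5 to 1473 ± 153 CPM (log2 fold change 1.30 ± 0.08, adjusted p = 3.5e-07) and *Txndc5* (1.16 ± 0.10, adjusted p = 4.08e-06). Oligosaccharyltransferase, the enzyme that attaches glycans to nascent chains, rose in 7 of its 11 genes. The translocon and signal peptidase list rose in 7 of 16 genes, led by the channel subunit *Sec61a1* (1.11 ± 0.11, adjusted p = 1.38e-05) and by *Ssr2* (1.08 ± 0.08, adjusted p = 1.69e-06). In glycoprotein quality control 3 of 8 rose and 1 fell, with the glucosidase gene *Mogs* at 1.12 ± 0.09 (adjusted p = 2.21e-06). Among genes of ER-associated degradation 6 of 15 rose and 1 fell, with *Derl3* at 1.34 ± 0.31 (adjusted p = 0.00351) and *Herpud1* at 0.98 ± 0.14 (adjusted p = 0.00029). Retrieval and export rose in 2 of 8 tested genes. The prolyl isomerases split, with the scarce *Fkbp11* rising from 0.96 ± 0.18 to 2.73 ± 0.32 CPM (adjusted p = 0.000579) and *Fkbp7* at -1.21 ± 0.13 (adjusted p = 1.56e-05).

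Of the 9 tested sensors and transcription factors of the unfolded protein response, *Atf6* alone was called higher (log2 fold change 0.61 ± 0.07, adjusted p = 2.08e-05), and 7 were above zero. *Ern1* stood at 0.13 ± 0.12 (adjusted p = 0.407), and *Eif2ak3* at 0.21 ± 0.08 (adjusted p = 0.0325) and *Atf4* at 0.44 ± 0.11 (adjusted p = 0.00425) did not reach 1.5-fold. *Ddit3*, which encodes the pro-apoptotic factor CHOP, stood at -0.30 ± 0.10 (adjusted p = 0.0319), below zero and within the fold limit. Outside the ER, 17 of 21 cytosolic and mitochondrial chaperone genes rose, led by the heat shock genes *Hspa1b* (3.40 ± 0.71, adjusted p = 0.00558) and *Hspa1a* (3.24 ± 0.78, adjusted p = 0.0109), a pair of near-identical copies, then *Hspa8* (1.51 ± 0.15, adjusted p = 1.86e-05) and *Hsph1* (1.47 ± 0.24, adjusted p = 0.00109). Of the 6 peptide loading partners 2 were called higher and 0 lower, with a median log2 fold change of 0.36. Early response genes that dissociation can induce summed to 418 to 602 CPM under PBS and 519 to 1001 under LPS. The part of dissociation and of the transcripts of neutrophils, endothelial cells, astrocytes and oligodendrocytes in these results was not tested.

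**Figure D3:**
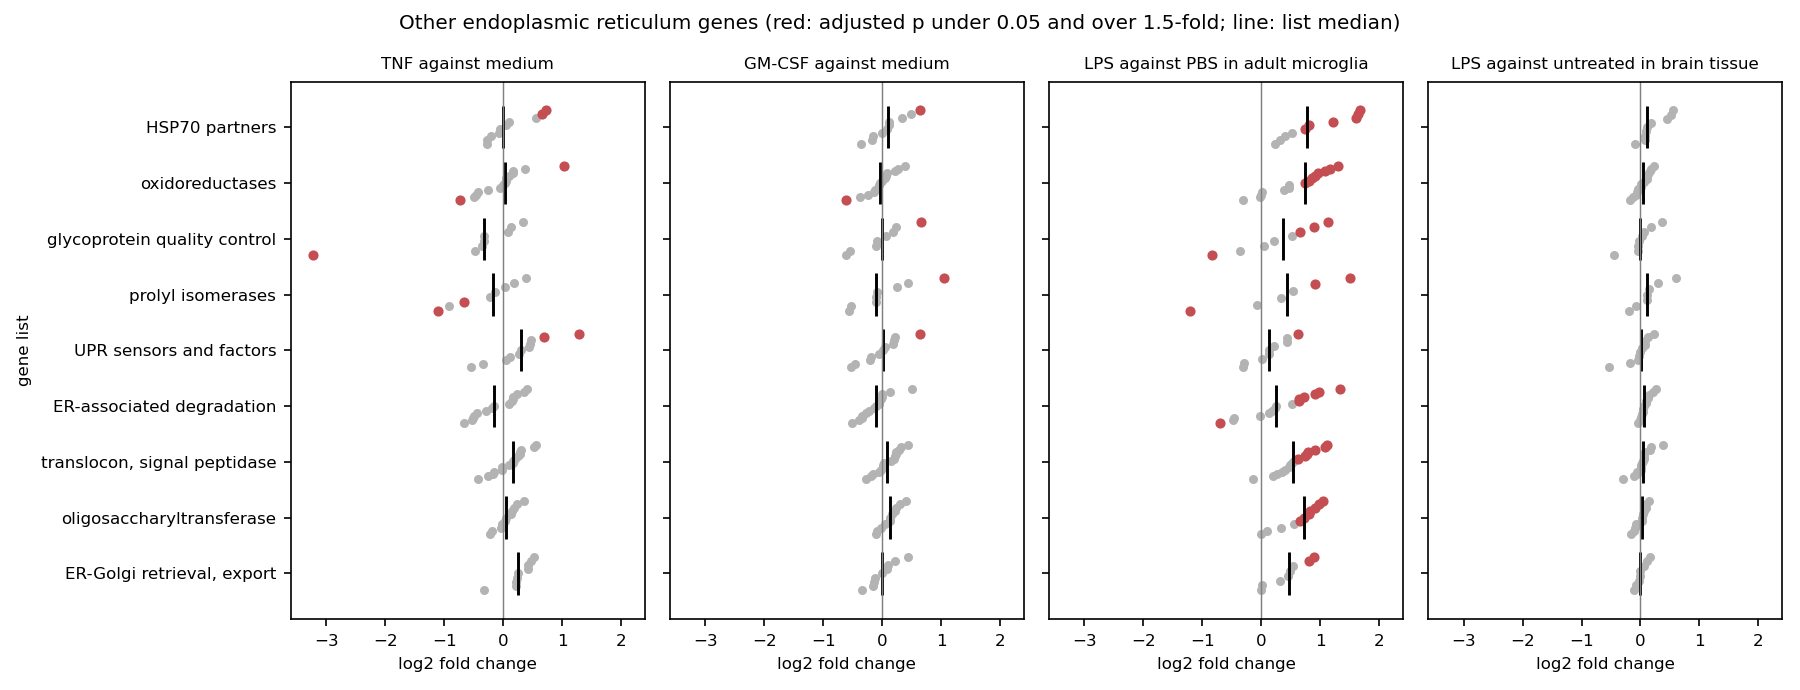
Log2 fold change of every tested gene of the 9 other ER lists in the 4 treatments, with called genes in red and the list median as a black line. The adult LPS panel holds 45 called genes, the TNF panel 9, the GM-CSF panel 5 and the brain panel 0.

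In brain tissue each of the 10 log2 fold changes after the same LPS dose was smaller than in adult microglia, and 1 LPS library stood low for all 10 genes. By the same rule only *Sdf2l1* was called higher, against 2.63% of 15083 tested genes (0.55% were called lower). *Sdf2l1* stood at 6.23, 5.93, 4.14 and 6.37 CPM in untreated tissue and at 18.3, 21.8, 7.37 and 15.6 CPM after LPS, a log2 fold change of 1.48 ± 0.33. *Xbp1* stood at 57.6, 54.1, 54.3 and 52.0 CPM untreated and at 86.0, 80.5, 62.7 and 76.8 CPM after LPS (log2 fold change 0.49 ± 0.08). These were the 2 genes whose groups did not overlap, against 9.09% of all tested genes with every LPS library above every untreated library.

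LPS replicate 3 was the lowest of the 4 LPS libraries for all 10 genes. *Hspa5* measured 193, 178, 169.9 and 169 CPM untreated, and 370.3, 304, 184 and 279.7 CPM in LPS replicates 1 to 4. Replicate 3 thus lay inside the untreated range while the others lay well above it, and the log2 fold change was 0.68 ± 0.21. *Calr* measured 308, 296, 302 and 295 CPM untreated and 443, 387, 216 and 331 CPM after LPS, with replicate 3 below every untreated library (log2 fold change 0.20 ± 0.21). *Pdia4* was at 64.7, 51.0, 31.1 and 51.9 CPM after LPS and at 28.2 to 33.2 CPM untreated (0.71 ± 0.21). *Canx* showed the smallest difference, at 374 to 401 CPM untreated and 338 to 419 CPM after LPS (-0.03 ± 0.05).

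Without replicate 3 the calls among the 10 went from 1 to 3, namely *Sdf2l1* (log2 fold change 1.71 ± 0.14), *Pdia4* (0.87 ± 0.08) and *Hspa5* (0.84 ± 0.11), while *Xbp1* reached 0.57 ± 0.05 and *Calr* 0.37 ± 0.10. Leaving out any of 6 other brain libraries instead ended the call of *Sdf2l1*: LPS replicate 1 or 4, or any of the 4 untreated libraries. In LPS replicate 3 the microglial markers summed to 253 CPM, against 397 to 425 in the other LPS libraries and 320 to 367 in untreated tissue. Over the 395 genes outside the 10 that were called higher in brain tissue, replicate 3 was the lowest LPS library for 26.6%. The share was 36.7% for replicate 1, 25.8% for replicate 2 and 10.9% for replicate 4. The median log2 ratio of replicate 3 to the untreated mean over these genes was 0.93, and the other LPS libraries ran from 0.81 to 0.98. The part of microglial content in the low chaperone values was not tested.

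**Figure D4:**
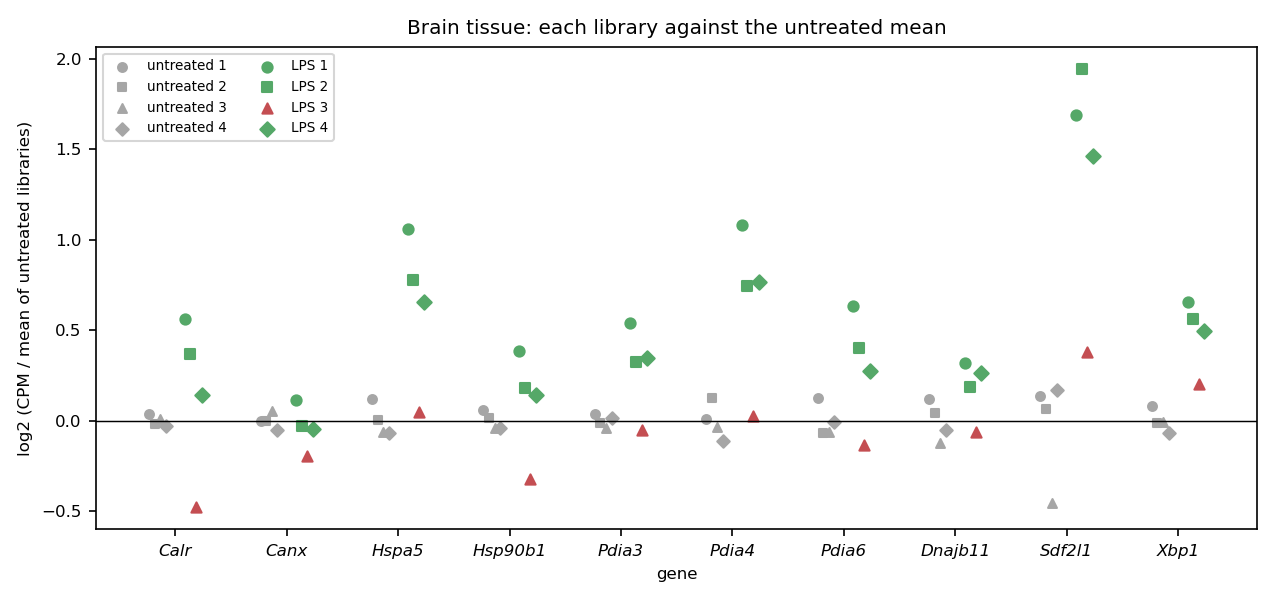
Log2 ratio of each brain library to the mean of the 4 untreated libraries, with LPS replicate 3 in red and the other LPS libraries in green. Replicate 3 is the lowest LPS library for all 10 genes, and below every untreated library for *Calr*, *Canx*, *Hsp90b1*, *Pdia3* and *Pdia6*, while the other 3 reach 1.46 to 1.94 for *Sdf2l1*.

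None of 96 tested genes of the 9 other ER lists was called in brain tissue by edgeR's quasi-likelihood test, nor by DESeq2 or limma-voom. At an unadjusted p under 0.05 there were 26, of which 19 were higher, and 7 passed the adjusted threshold within 1.5-fold, 4 of them higher. Those 4 were *Dnajc3* (0.51 ± 0.08, adjusted p = 0.000529), *Manf* (0.55 ± 0.14, adjusted p = 0.0416), *Herpud1* (0.27 ± 0.05, adjusted p = 0.0023) and *P4hb* (0.18 ± 0.05, adjusted p = 0.0344), and the other always-named genes had adjusted p-values of 0.0579 (*Atf4*) or more. *Hyou1* stood at 0.18 ± 0.07 (adjusted p = 0.139), *Creld2* at 0.45 ± 0.23 (adjusted p = 0.272), *Dnajb9* at 0.10 ± 0.06 (adjusted p = 0.363) and the sensor *Ern1* at 0.23 ± 0.09 (adjusted p = 0.13). Without LPS replicate 3, *Manf* (0.68 ± 0.07, adjusted p = 6.82e-07) and *Creld2* (0.65 ± 0.12, adjusted p = 0.00081) rose. Of the peptide loading partners 5 of 6 rose, led by the transporter *Tap1* (1.74 ± 0.18, adjusted p = 1.35e-05), and of the cytosolic chaperones *Hspa1b* (1.19 ± 0.17, adjusted p = 0.00132) and *Hspa1a* (0.71 ± 0.18, adjusted p = 0.034). Endothelial markers summed to 247 to 263 CPM untreated and 328 to 375 after LPS, and oligodendrocyte markers to 6367 to 6953 and 4847 to 5795.

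The LPS differences in adult microglia and brain tissue were then compared in 1 model of 16 samples, which removes the level of each table. Among the 10 genes the difference of the 2 log2 fold changes was largest for *Dnajb11* (1.19 ± 0.13), *Hspa5* (1.03 ± 0.21) and *Calr* (0.98 ± 0.21), and smallest for *Sdf2l1* (0.41 ± 0.32) and *Xbp1* (0.02 ± 0.12). By the call rule 7 of 10 were called larger in adult microglia, against 9.1% of 16676 genes (10.6% were called smaller), and 5 without brain LPS replicate 3. Of the 102 tested genes outside the group, 44 changed more upward in adult microglia and 2 more downward. The differences were 1.43 ± 0.17 for *Hyou1* (adjusted p = 3.81e-06), 1.18 ± 0.25 for *Creld2* (adjusted p = 0.00162), 1.12 ± 0.17 for *Manf* (adjusted p = 6.32e-05), 1.11 ± 0.10 for *P4hb* (adjusted p = 1.75e-07) and 0.61 ± 0.13 for *Atf4* (adjusted p = 0.00093). *Atf6* (0.48 ± 0.09, adjusted p = 0.000292) was within the fold limit, and *Eif2ak3* (adjusted p = 0.113), *Ern1* (adjusted p = 0.679) and *Ddit3* (adjusted p = 0.0667) did not pass. Cytosolic chaperones differed the same way in 15 of 21 genes, led by *Hsph1* (1.48 ± 0.32, adjusted p = 0.00287), *Hspa8*, *Hsp90aa1* and *Hsp90ab1*. The peptide loading partners differed the opposite way in 3 of 6, led by *B2m* (-0.77 ± 0.16, adjusted p = 0.00107). Library kit, sorting and the kind of control differ between the 2 tables and cannot be told apart from the tissue.

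In slice microglia the TNF and medium libraries separated for BiP and its partner, while for the other 8 transcripts they overlapped. *Hspa5* ran from 1392 to 1767 CPM in medium (median 1613, n = 9) and from 2132 to 2763 CPM with TNF (median 2496, n = 11), so that all 11 TNF libraries lay above all medium libraries (log2 fold change 0.62 ± 0.06). *Dnajb11* ran from 188 to 225 CPM (median 195) and from 227 to 294 CPM (median 254), also without overlap but by a small gap (0.38 ± 0.06). The share of all 11313 tested genes with every TNF library above every medium library was 6.25%. *Hspa5* was the 1 gene called higher, against 9.1% of all genes (11.7% were called lower), and without TMM factors (total counts) its value was 0.55 and none of the 10 was called. *Pdia6* stood at 0.28 ± 0.06, with 7 of 11 TNF libraries above all medium libraries.

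Of the remaining 7 transcripts, *Canx* (-0.21 ± 0.07) and *Pdia3* (-0.13 ± 0.05) were lower with TNF, *Xbp1* (0.18 ± 0.07) and *Calr* (0.11 ± 0.07) were higher, and *Hsp90b1* (-0.07 ± 0.09), *Sdf2l1* (0.02 ± 0.11) and *Pdia4* (0.05 ± 0.06) were within about 1 SE of zero. *Sdf2l1*, the gene with the largest difference under LPS, ran from 238 to 374 CPM in medium and from 204 to 363 CPM with TNF. *Hspa5* differed alike in the libraries whose titles carry the codes 1A and 1B (0.59) and 2A and 2B (0.64), whereas *Sdf2l1* was at 0.18 in the first and -0.19 in the second. What these codes stand for is not given in the labels.

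Among the other ER genes, 5 of 103 rose with TNF and 4 fell (5 and 6 when scaled by total counts). Over all genes, 9.1% were called higher and 11.7% lower. The median log2 fold change was 0.08 in the lists, against -0.03 over all genes. The list genes that rose were *Chac1* (1.28 ± 0.20, adjusted p = 1.63e-06), *Atf4* (0.70 ± 0.08, adjusted p = 7.79e-09), *Ero1l*, the oxidase that recharges disulfide isomerases (1.03 ± 0.10, adjusted p = 2.43e-10), *Creld2* (0.72 ± 0.08, adjusted p = 5.28e-09) and *Hyou1* (0.66 ± 0.19, adjusted p = 0.00641). *Chac1* and *Atf4* belong to the list of sensors and factors of the unfolded protein response. *Ero1l* stood at 509 ± 97.3 CPM in medium (n = 9) and 1036 ± 122 CPM with TNF (n = 11). Those that fell were *Clgn*, a calnexin homologue at 3.39 ± 1.72 CPM in medium and 0.340 ± 0.536 with TNF (-3.23 ± 0.67, adjusted p = 0.000184), *Fkbp7* (-1.10 ± 0.16, adjusted p = 4.28e-07), *Tmx4* (-0.74 ± 0.14, adjusted p = 3.34e-05) and *Fkbp14* (-0.66 ± 0.19, adjusted p = 0.00582). *Manf* (0.56 ± 0.07, adjusted p = 4.78e-08), *Herpud1* (0.40 ± 0.08, adjusted p = 0.000115), *Ddit3* (0.48 ± 0.16, adjusted p = 0.0182), *P4hb* (0.16 ± 0.07, adjusted p = 0.0466), *Dnajb9* (-0.27 ± 0.09, adjusted p = 0.0211) and *Eif2ak3* (-0.54 ± 0.18, adjusted p = 0.0168) stayed within the fold limit, and *Ern1* (adjusted p = 0.199) and *Atf6* (adjusted p = 0.534) did not pass. Of 20 tested cytosolic and mitochondrial chaperones 8 rose, led by *Hspd1* (0.77 ± 0.06, adjusted p = 3.52e-12), *Cct2*, *Cct6a* and *Cct3*, and of the peptide loading partners 3 of 6, led by *Tap1* (1.84 ± 0.13, adjusted p = 8.04e-14). All 10 microglial markers were lower with TNF and 9 were called. The same 10 were lower with GM-CSF (8 called) and in adult microglia after LPS (6 called).

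With GM-CSF, *Hspa5* and *Pdia4* were the genes whose groups did not overlap. *Hspa5* ran from 1898 to 2324 CPM (median 2098, n = 9) against 1392 to 1767 CPM in medium (log2 fold change 0.40 ± 0.06). *Pdia4* ran from 478 to 599.9 CPM (median 536) against 372 to 449.7 CPM (median 409; 0.40 ± 0.06). Among all tested genes, 2.93% had every GM-CSF library above every medium library. *Xbp1* (0.40 ± 0.08), *Pdia6* (0.38 ± 0.06) and *Dnajb11* (0.27 ± 0.06) were next, with 6, 8 and 8 of 9 GM-CSF libraries above all medium libraries. None of the 10 was called by edgeR, DESeq2 or limma-voom (4.84% of all genes were called higher and 5.96% lower). *Canx* (-0.00 ± 0.08) and *Pdia3* (-0.03 ± 0.06) were near zero.

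Of the other ER genes 4 of 103 rose with GM-CSF and 1 fell, against 4.84% of all genes called higher and 5.96% lower. Their median log2 fold change was -0.00, against -0.04 over all genes. Scaled by total counts alone, the split was 5 and 0, that of all genes went from 548 higher and 674 lower to 814 and 460, and the median of all genes was 0.07. *Manf* rose from 109.9 ± 11.3 to 171 ± 16.6 CPM (n = 9 each; 0.63 ± 0.07, adjusted p = 3e-08) without overlap between the groups, followed by *Fkbp11* (1.05 ± 0.26, adjusted p = 0.00226), *Mogs* (0.65 ± 0.12, adjusted p = 4.81e-05) and *Chac1* (0.63 ± 0.20, adjusted p = 0.0177), and *Tmx4* fell (-0.61 ± 0.14, adjusted p = 0.00127). *Creld2* (0.49 ± 0.09, adjusted p = 2.8e-05), *Dnajb9* (-0.36 ± 0.10, adjusted p = 0.00531) and *Ddit3* (-0.46 ± 0.17, adjusted p = 0.0455) stayed within the fold limit. *Hyou1* (adjusted p = 0.242), *P4hb* (adjusted p = 0.617), *Herpud1* (adjusted p = 0.977), *Ern1* (adjusted p = 0.974), *Eif2ak3* (-0.21 ± 0.19), *Atf6* (adjusted p = 0.833) and *Atf4* (adjusted p = 0.0959) did not pass. Cytosolic and mitochondrial chaperones rose in 9 of 20 genes, led by the mitochondrial chaperonin *Hspd1* (1.08 ± 0.07, adjusted p = 1.69e-14), *Cct3*, *Cct5* and *Hspe1*. The 1 peptide loading partner called was *Tapbp*, which fell (-0.64 ± 0.09, adjusted p = 1.48e-06). Cell cycle genes summed to 1063 to 1447 CPM with GM-CSF, 798 to 1382 in medium and 527 to 914 with TNF.

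The cytokines were also compared directly, with the medium samples shared by the comparisons above left out of the contrast. *Hspa5* was higher with TNF than with GM-CSF (log2 difference 0.22 ± 0.06, 9 of 11 TNF libraries above all GM-CSF libraries), while *Pdia4* was lower (-0.36 ± 0.06, 10 of 11 TNF libraries below all GM-CSF libraries), as was *Hsp90b1* (-0.30 ± 0.09). None of the 10 was called, against 8.25% of all genes higher and 7.96% lower with TNF. Among the other ER genes 5 were higher with TNF, namely *Ero1l* (1.07 ± 0.10, adjusted p = 1.19e-10), *Ddit3* (0.94 ± 0.17, adjusted p = 2.4e-05), *Chac1* (0.65 ± 0.19, adjusted p = 0.00821), *Trib3* (0.64 ± 0.09, adjusted p = 1.17e-06) and *Ppp1r15a* (0.59 ± 0.17, adjusted p = 0.00703). *Clgn* (-2.62 ± 0.67, adjusted p = 0.00253) and *Fkbp11* (-0.66 ± 0.24, adjusted p = 0.0365) were lower. *Atf4* (0.51 ± 0.08, adjusted p = 4.35e-06), *Herpud1* (0.41 ± 0.08, adjusted p = 0.000131) and *Creld2* (0.23 ± 0.08, adjusted p = 0.031) were within the fold limit. Scaled by total counts, this split of 5 higher and 2 lower became 2 higher and 5 lower, that of all genes went from 933 and 900 to 694 and 1514, and the median of all genes moved from -0.02 to -0.19. Peptide loading partners were higher with TNF in 5 of 6 genes, led by *Tap1* (2.29 ± 0.14, adjusted p = 5.46e-16), and no cytosolic chaperone was called.

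Across the 29 slice libraries, with the mean of each treatment removed, the 10 transcripts varied together in part. The median Pearson's r of log2 CPM over the 45 pairs was 0.33, and 36 pairs were above zero. It ran from 0.29 to 0.35 when any 1 library was left out. *Hspa5* and *Hsp90b1* had the highest r (0.71), followed by *Pdia6* and *Sdf2l1* (0.70), *Sdf2l1* and *Xbp1* (0.63) and *Hsp90b1* and *Pdia3* (0.63). *Xbp1* was below zero with *Pdia3* (-0.37), *Hspa5* (-0.35), *Hsp90b1* (-0.25), *Dnajb11* (-0.13) and *Pdia4* (-0.06). *Pdia6* followed the mean of the other 9 most closely (r = 0.85) and *Xbp1* least (0.21).

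**Figure D5:**
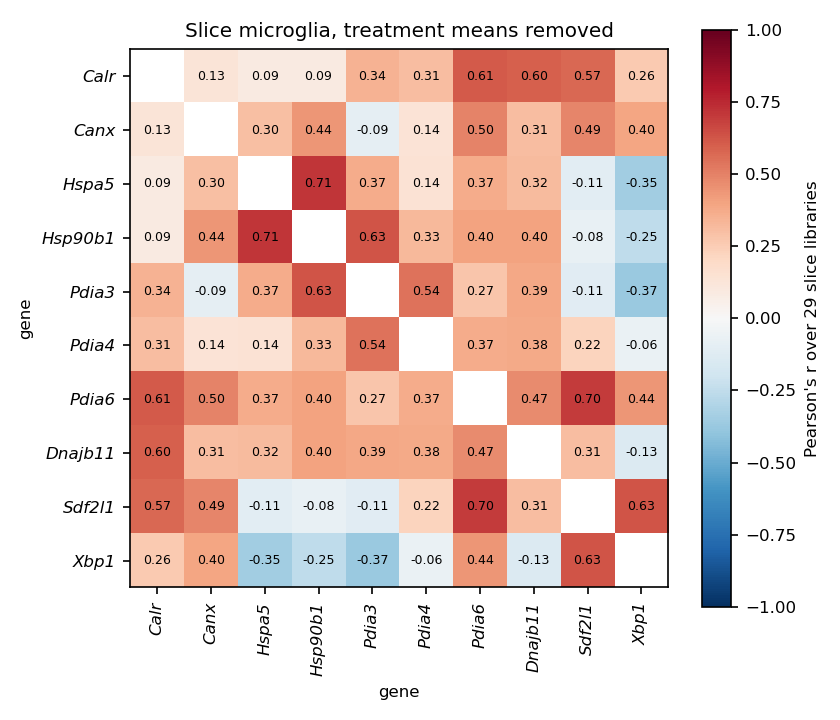
Pearson's r of log2 CPM between the 10 transcripts over the 29 slice libraries, treatment means removed. *Hspa5* and *Hsp90b1* reach 0.71, and *Xbp1* is at -0.37 with *Pdia3* and 0.63 with *Sdf2l1*.

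The genes most like the mean of the 10 over the same libraries were *Selplg* (r = 0.88), *B4galt4* (0.79), *Siglech* (0.79), *Naaa* (0.79), *C1qb* (0.79), *Sparc* (0.79), *Rpn1* (0.78), *Tspan33* (0.78), *Acss1* (0.77) and *Cst7* (0.77). *Rpn1*, a subunit of oligosaccharyltransferase, belongs to an ER list, and *Selplg* and *Siglech* to the microglial markers. The median r with this mean was 0.23 over the 103 other ER genes, 0.19 over 20 cytosolic and mitochondrial chaperones and 0.01 over the 11303 tested genes that are not members. The library total had an r of 0.26. With the means of each treatment and title code removed, the r of *Selplg* was 0.70, that of *Rpn1* 0.36 and the median over the 45 pairs 0.21. The libraries share title codes and the sorting procedure, and no p was computed for these values. The part of other cell types in these correlations was not tested.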

How the data were processed

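Gene-level values of 45 libraries were used as 3 deposited tables. For slice microglia these are whole-number counts that the authors made with STAR 2.7.0a and featureCounts (Subread 1.6.4) on mm10, per the labels. For adult microglia and brain tissue they are deposited expected counts on mm10, rounded here to whole numbers; the aligner and the counter: not given in the sources used here. The 92 spike-in rows of the brain table held 0 counts. Annotation came from GENCODE M21.

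Each table was fitted with edgeR 4.0.16 (R 4.3.3; TMM, robust quasi-likelihood F test, Benjamini-Hochberg over all genes) after a filter (minimum count 10, minimum total 15), with all groups of the table in the fit; adult and brain samples were also fitted together to compare their LPS effects. The thresholds (adjusted p of 0.05, 1.5-fold) are those of the study. SE is the log2 fold change over the root of F. CPM uses TMM library sizes over tested genes. log2 CPM for correlations had a prior count of 2. The tests were checked on simulated data with known changes. Totals ran from 5973364 to 9165485 counts (slices), from 11391564 to 14216005 (adult) and from 8199863 to 10368578 (brain).

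The members and gene lists were chosen with earlier results of these data known. Outside the members the text names, per comparison, up to 12 called genes of the 9 ER lists with the largest change and up to 4 other chaperones. It also names the peptide loading partner that changed most, except in adult microglia, and the 10 genes most correlated with the members. A further 11 genes were chosen for naming whatever they did (*Ern1*, *Eif2ak3*, *Atf6*, *Atf4*, *Ddit3*, *Hyou1*, *Dnajb9*, *Manf*, *Creld2*, *Herpud1* and *P4hb*). Between the cytokines only *Atf4*, *Ddit3*, *Herpud1* and *Creld2* of these are named. In brain tissue *Eif2ak3*, *Atf6* and *Ddit3* are given only by a bound on the adjusted p. *Dnajc3* in brain tissue was named after its value was seen. Alternatives were DESeq2 1.42.0, limma-voom 3.58.1, other scalings and filters (none, or a minimum count of 50), blocks and leaving out each in vivo library.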

Additional observations from a re-analysis of the deposited data

Results flagged for a closer look

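In 60 groups of 4 to 10 libraries (10 genes in 6 groups), 4 libraries stood apart from the rest of their group by Dixon's test, which chance gives in about 1 of 20 groups. They were *Calr* in GM-CSF replicate 1 (1415 CPM), *Canx* in PBS replicate 1 (914 CPM), *Hsp90b1* in adult LPS replicate 4 (2331 CPM) and *Xbp1* in medium replicate 5 (631 CPM), each the highest of its group. Brain LPS replicate 3, the lowest LPS library for all 10 genes, did not pass this test for any of them.

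The LPS difference in adult microglia and in brain tissue differed, by the interaction test over all genes (edgeR, adjusted p), in 46 other ER genes, of which 42 passed the expression filter in both tables. The log2 values (adult minus brain) were 3.29 for *Trib3* (adjusted p = 0.0025) and 3.07 for *Chac1* (adjusted p = 0.0194), 2 genes too low in adult microglia to be tested there (*Trib3* also in brain tissue). They were 1.47 for *Fkbp11* (adjusted p = 0.0434) and 1.30 for *Derl3* (adjusted p = 0.0423), both too low to be tested in brain tissue. Genes tested in both were *Hyou1* (1.43, adjusted p = 3.81e-06), *Pdia5* (1.25, adjusted p = 2.74e-05), *Txndc5* (1.22, adjusted p = 3.24e-07), *Creld2* (1.18, adjusted p = 0.00162), *Manf* (1.12, adjusted p = 6.32e-05), *P4hb* (1.11, adjusted p = 1.75e-07), *Sec61a1* (1.04, adjusted p = 1.1e-05), *Herpud1* (0.70, adjusted p = 0.00236), *Dnajb9* (0.70, adjusted p = 0.000152) and *Atf4* (0.61, adjusted p = 0.00093), and *Fkbp7* at -1.33 (adjusted p = 0.00378).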

How the results depend on the processing

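The limits are those of the files: gene-level counts hold no spliced form of *Xbp1*, the brain result rests on 4 libraries a group, and the LPS controls differ between the tables. Across alternatives, 130 values of the main results stayed within 1.5 times (counts) or within the spread (levels and the correlation), 14 counts were larger, 12 smaller and 9 levels or correlations moved by more. Of the single values of the 10 genes, 493 stayed within the spread and 27 moved. Signs changed in at least 1 alternative for *Pdia4* and *Sdf2l1* with TNF, *Canx* and *Pdia3* with GM-CSF and *Canx* in brain tissue, all with values between -0.03 and 0.05, and for none of the 10 in adult microglia.

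With the adjusted p alone and no fold limit, the other ER genes called were 53 with TNF (9 with the limit), 28 with GM-CSF (5), 32 between the cytokines (7), 78 in adult microglia (45), 7 in brain tissue (0) and 68 in the comparison of the LPS effects (46). Among the 10 genes, where such counts only describe genes selected on these contrasts, they were 6 with TNF (1), 5 with GM-CSF (0) and 2 in brain tissue (1). Within title codes 2A and 2B, 14 other ER genes were called with TNF, 3 with GM-CSF and 4 between the cytokines, and within 1A and 1B 4 between the cytokines. With total counts in place of TMM, 0 of the 10 were called with TNF. Of the 10 genes in brain tissue, DESeq2 called 3, limma-voom 0 and edgeR without a filter on low counts 0.

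Leaving out 1 library at a time gave 41 to 51 other ER genes in adult microglia, 42 to 48 for the comparison of the LPS effects, and 0 to 2 in brain tissue (2 without LPS replicate 3, 1 without LPS replicate 2 or untreated replicate 3, 0 otherwise). Of the 10 genes in brain tissue, 0 to 3 were called (3 without LPS replicate 3, 0 without LPS replicate 1 or 4 or any untreated library). The calls for the LPS effects among the 10 ran from 5 to 8.

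With the longest transcript in place of merged exons, the summed level was 2869 CPM per kb in medium, 3179 with TNF, 3363 with GM-CSF, 2318 under PBS, 5201 under adult LPS, 514 in untreated brain tissue and 620 after LPS, and with total counts it was 2946 with GM-CSF. The longer length of merged exons is the cause by construction of the first set, and the cause was not tested for the others. The median correlation was 0.21 with the means of treatment and title code removed.

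Samples with the same replicate number were not treated as pairs. The median r of their deviations was -0.01 in adult microglia and 0.03 in brain tissue (-0.01 for different numbers in each), and 0.07 in slices (-0.02 for different numbers), where the lowest same-numbered pair was at -0.04. Slice samples of the same title code had a median r of 0.08, and those of different codes -0.03. With the title code as a block, 2426 of all genes were called with TNF (2353 without it). The counts were 1232 with GM-CSF (1222) and 1899 between the cytokines (1833). The replicate block gave 10 other ER genes with TNF, 6 with GM-CSF, 5 between the cytokines, 45 in adult microglia, 0 in brain tissue and 45 for the LPS effects, and 1, 0, 8 and 1 of the 10 genes with TNF, with GM-CSF, in adult microglia and in brain tissue.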
